A study of Mus musculus with 12 samples.

Results

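Antiviral interferon-stimulated genes are the effector genes that cells switch on when the interferon receptor signals. The 37 genes described here were taken by name from a list drawn up with earlier results of these data known, with no threshold on a measured value: 3 IFIT genes, 2 MX genes, 6 genes of the OAS and OAS-like family, 5 of the ISG15 and ubiquitin system, 7 enzymes acting on nucleotides or RNA, 3 PARP genes, Trim21, 2 membrane restriction factors and 8 others. They are 37 of the 22978 genes that entered the fit. On the array 47 probes carry the name of a member, and where a gene had more than 1 probe, as 10 of the members did, the brightest probe over the 12 arrays stood for it. The probe of each of the 37 members was well above background on all 12 arrays, so no member was lost to the filter on dim probes and no fold is a lower bound.

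The samples were bone marrow-derived macrophages of 4 mice, 2 Commd1 wildtype and 2 Commd1 knockout. In all 6 groups the marrow cells were cultured in GM-CSF (20 ng/mL, 10 days), which drives myeloid growth. The cells of each mouse were divided into an untreated sample, a sample given 10 ng/mL lipopolysaccharide (LPS, a component of the bacterial outer membrane) for 3 h and a sample given LPS for 24 h. The groups were therefore wildtype untreated, wildtype LPS 3 h, wildtype LPS 24 h, knockout untreated, knockout LPS 3 h and knockout LPS 24 h, with 2 samples each, 1 from each mouse. The knockout allele, the strain, and the age and sex of the mice are not given in the sources used here, and whether the deletion is in all cells is likewise not given.

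Macrophages sense LPS through the receptor TLR4. Its adaptor TRIF activates the kinase TBK1 and the factor IRF3, which switch on the interferon beta gene, and secreted interferon then acts on the receptor of the same and neighbouring cells. The receptor's kinases activate the transcription factor complex ISGF3, and this complex binds the interferon-stimulated response element (ISRE) in front of the antiviral genes. Some of these genes can also be switched on by IRF3 directly, before interferon has been made. The encoded proteins block viral entry, bind or cut viral RNA, halt translation, deplete or alter nucleotides, or tag proteins with ISG15.

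The core of the ISRE, GAAANNGAAA on either strand, is shown first because it is the site that ISGF3 binds. RefSeq promoters (GRCm38.p6, 250 bases before to 50 bases after a start) were listed for 29 of the 37 members, and 12 of the 29 (41.4%) held the core, against 3.99% of all 27025 genes with a listed promoter. The windows of 8 members are printed 5′ to 3′ on the gene's strand, with each match in the window in capitals and 15 flanking bases at either side. The 8 members were chosen because their first match lies before the start and to cover the families described below. In Ifit3 and Ddx60 the window stops after the first of 2 matches.
Isg15, promoter chr4:156200769-156201068, minus strand: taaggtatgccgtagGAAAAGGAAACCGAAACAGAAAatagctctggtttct
Ifit1, promoter chr19:34640639-34640938, plus strand: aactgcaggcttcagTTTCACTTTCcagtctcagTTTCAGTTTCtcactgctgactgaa
Ifit3, promoter chr19:34583279-34583578, plus strand: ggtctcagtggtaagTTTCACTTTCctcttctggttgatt
Oas1a, promoter chr5:120907476-120907775, minus strand: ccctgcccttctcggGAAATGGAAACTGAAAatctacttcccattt
Oas3, promoter chr5:120777610-120777909, minus strand: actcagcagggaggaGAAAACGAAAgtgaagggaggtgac
Rsad2, promoter chr12:26456403-26456702, minus strand: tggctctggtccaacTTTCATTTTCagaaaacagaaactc
Bst2, promoter chr8:71537423-71537722, minus strand: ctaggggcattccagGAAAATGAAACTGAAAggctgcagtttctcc
Ddx60, promoter chr8:61927837-61928136, plus strand: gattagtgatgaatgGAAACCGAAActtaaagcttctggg
The Oas1g window was letter for letter that of Oas1a. Matches in Isg15, Oas1a and Bst2 overlap each other, and 9 of the 12 promoters held 2 or more. Counted from the start, the first match lay between positions -156 and 18, and in Ifitm3, Trim21 and Eif2ak2 it lay after the start. The core of the STAT dimer site GAS, TTCNNNGAA, was in 8 of the 29 (27.6%) against 9.55% of all genes, and the kappaB consensus was in 3 (10.3%) against 5.14%. These are matches of letters in a short window, and absence from the window says nothing about a factor elsewhere.

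The Commd1 probe lay between 2.70 and 2.89 on the log2 scale in the 6 wildtype samples and between -0.50 and 0.07 in the 6 knockout samples, and whether it lies in the deleted part is not given in the sources used here. A level here is the log2 processed signal of a probe minus the 75th percentile of its array, so that levels of different probes are not compared. The 12 macrophage markers were above background on both arrays of each group, with a summed log2 level between 8.42 and 9.16. Of 8 dendritic cell markers 4 to 6 were above background on both arrays of a group. Their summed log2 level, carried by Itgax in untreated cells, was then 2.31 and 2.38 in wildtype against 0.97 and 1.23 in knockout. The sum was 2.84 and 3.05 against 2.64 and 2.83 after 3 h, and 0.63 and 0.66 against 0.10 and 0.24 after 24 h. Itgax had mean levels of 2.30 and 0.96 in untreated wildtype and knockout, whereas Zbtb46 had -5.00 and -4.79 and Ciita -3.80 and -3.68. After LPS Zbtb46 also weighed in the sum and was higher in knockout, unlike Itgax. Zbtb46 was at 0.90 in wildtype and 1.45 in knockout after 3 h, and at -2.28 and -1.46 after 24 h. Itgax was at 2.45 and 1.69 after 3 h and at 0.31 and -0.66 after 24 h. Xcr1 was above background on 0 of the 12 arrays and Cd209a on 1. The summed level of 6 B cell markers, of which 4 were above background in untreated cells of each genotype and which Cd79b carried, was -0.40 and -0.27 in untreated wildtype and 0.75 and 0.69 in untreated knockout, and Ebf1 was above background on 0 arrays. Ms4a1, another B cell marker, had mean levels of -6.91 and -7.86 in untreated wildtype and knockout. Of 8 neutrophil markers 7 were on the array and 6 above background on both arrays of each group, and before LPS the mean of each of the 7 was lower in knockout than in wildtype, S100a8 at -3.20 against -1.59, Ltf at -5.08 against -4.04 and Mpo at -6.32 against -5.14. Their summed level, carried by Elane, was 4.54 and 4.46 in untreated wildtype against 4.36 and 4.40 in knockout, 4.15 and 4.15 against 3.61 and 3.81 after 3 h, and 4.55 and 4.70 against 4.41 and 4.59 after 24 h. Of 6 plasmacytoid dendritic cell markers 3 to 5 were above background on both arrays of a group. Their summed level, carried by Siglech, was 5.68 and 5.62 in untreated wildtype against 5.85 and 5.70 in knockout. It was 5.66 and 5.67 against 6.24 and 5.999 after 3 h, and 5.60 and 5.73 against 5.79 and 5.70 after 24 h. The T or NK cell sum, carried by Cd4, was 2.18 and 2.15 against 2.47 and 2.36 in untreated cells and overlapped after LPS. Of these 6 markers 4 were above background on both arrays in untreated wildtype and 2 in untreated knockout, and Cd3g was on 0 arrays. The stroma sums overlapped at each time. The part of these markers in the results below was not tested. In such bulk samples fewer cells of a type and less RNA per cell cannot be told apart. Each time had its own slide of 4 arrays, so LPS time and slide cannot be told apart. The genotypes also kept the same places on every slide, so place and genotype cannot be told apart either.

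LPS raised the whole set. After 3 h each of the 37 members was higher in wildtype macrophages (23.2% of all genes tested were higher), with a median log2 difference of 2.86 and a range of 0.37 to 8.75, where the median of all genes was 0.03. After 24 h all 37 were again higher in wildtype (23.6% of all genes), with a median of 3.35 and a range of 0.85 to 7.89. In knockout macrophages 36 of 37 were higher after 3 h (26.4% of all genes), with a median of 3.06, and all 37 after 24 h (26% of all genes), with a median of 3.18. The exception was Trim25, whose difference in knockout cells after 3 h was 0.04 ± 0.13 (standard error). In both genotypes 0 members were lower than untreated at 3 h (23.4% of all genes in wildtype, 25.7% in knockout) or at 24 h (26.4% and 31.5%). Both comparisons of a genotype share its untreated samples. Each call is by limma at an adjusted p under 0.05 (Benjamini-Hochberg, all genes), and differences are on the log2 scale with their standard error.

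**Figure D1:**
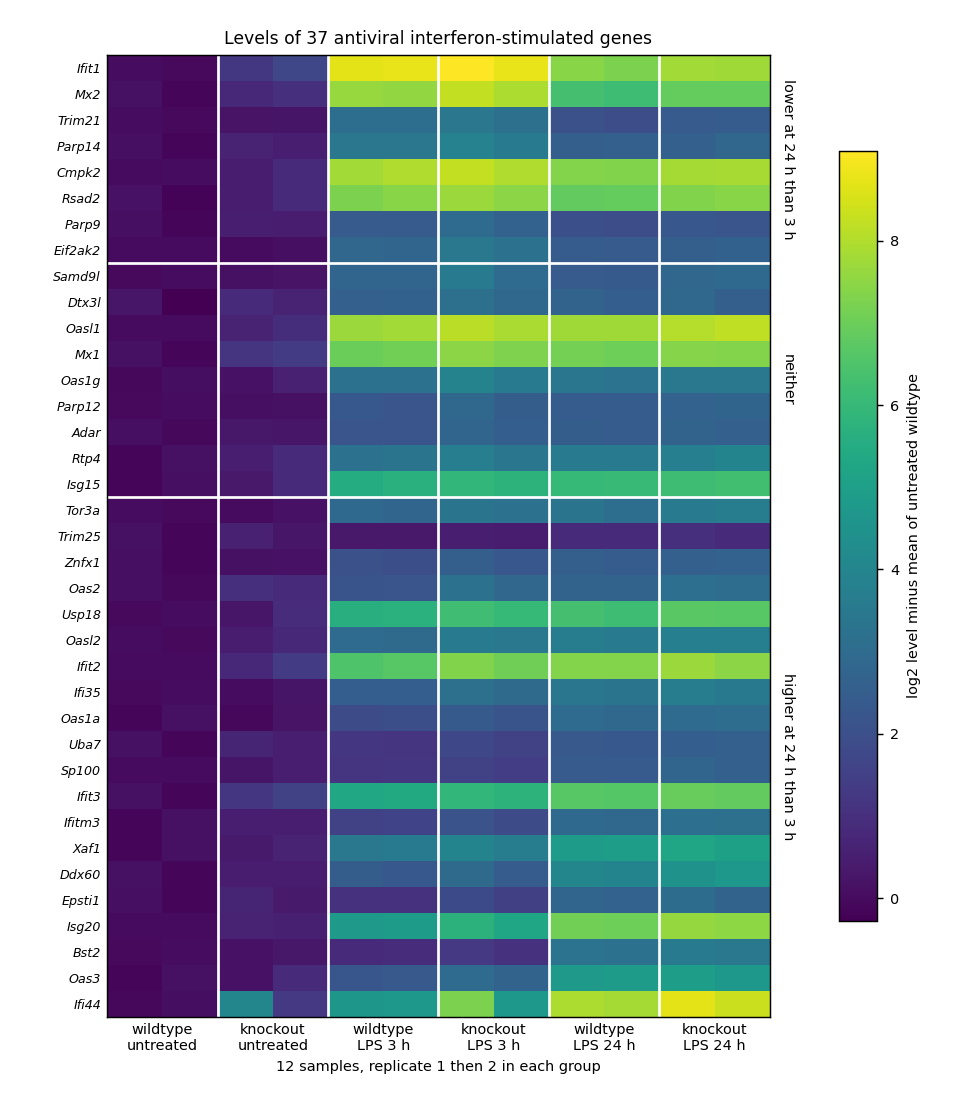
Heat map of the log2 level of the 37 members in the 12 samples, each minus the gene's mean in untreated wildtype (colour scale, log2 units), with genes grouped by whether wildtype levels were lower, not called or higher at 24 h than at 3 h of LPS. The LPS columns are lighter than the untreated columns for nearly every gene, the rows differ in height from Trim25 (0.37 after 3 h in wildtype) to Ifit1 (8.75), and Ifi44 is the row in which the knockout replicates differ most.

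The IFIT proteins bind viral RNA that lacks the host's cap modifications. Ifit1 stood at -2.09 and -2.20 in untreated wildtype and at -0.92 and -0.42 in untreated knockout. After 3 h it had reached 6.57 and 6.64 in wildtype and 6.95 and 6.63 in knockout, and after 24 h 5.29 and 5.11 against 5.63 and 5.61. The groups of the genotypes were therefore apart in untreated cells and overlapped after 3 h. The rise of Ifit1 at 3 h in wildtype, 8.75 ± 0.17 (430.3-fold, adjusted p = 1.69e-08), was the largest of the 37, and in knockout it was 7.45 ± 0.17 (adjusted p = 2.79e-08). Ifit2 rose by 6.59 ± 0.18 at 3 h and 7.36 ± 0.18 at 24 h in wildtype, and by 6.10 ± 0.18 and 6.47 ± 0.18 in knockout. Ifit3 was at 0.53 and 0.24 in untreated wildtype and at 1.58 and 1.96 in untreated knockout. After 3 h wildtype stood at 5.67 and 5.80 and knockout at 6.30 and 6.17, and after 24 h at 7.035 and 7.005 against 7.31 and 7.23. Ifit3 thus went on rising where Ifit1 declined, in all 4 mice.

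The MX genes encode dynamin-like GTPases that act on viral nucleocapsids. Mx1 was at -0.26 and -0.56 in untreated wildtype and at 0.77 and 0.96 in untreated knockout. With LPS for 3 h it stood at 6.59 and 6.68 in wildtype and 7.04 and 6.85 in knockout, and for 24 h at 6.72 and 6.63 against 6.99 and 6.96. The knockout samples were above the wildtype samples at each time. Mx1 rose 132-fold in wildtype after 3 h (7.05 ± 0.13, adjusted p = 1.45e-08) and 67.9-fold in knockout (6.08 ± 0.13, adjusted p = 1.94e-08). Mx2 went from -2.31 and -2.59 to 5.18 and 5.12 at 3 h and 3.88 and 3.73 at 24 h in wildtype. In knockout cells Mx2 went from -1.64 and -1.43 to 5.79 and 5.48 and then 4.41 and 4.43. Mx2 therefore peaked early in both genotypes, while Mx1 kept its 3 h level.

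OAS enzymes make short oligoadenylates that activate RNase L when they meet double-stranded RNA, and OAS-like proteins share their fold. All 6 were higher than untreated at both times in both genotypes, with medians of 2.64 at 3 h and 3.49 at 24 h in wildtype and 2.63 and 3.12 in knockout. Oasl1, a restraint on Irf7 translation, rose most of the family, from -0.98 and -0.97 to 6.69 and 6.80 at 3 h and 6.77 and 6.78 at 24 h in wildtype. In knockout cells it rose from -0.31 and -0.04 to 7.16 and 6.94 and then 7.05 and 7.21. The knockout samples lay above the wildtype samples at each time, and in neither genotype did the 24 h level differ from the 3 h level (0.03 ± 0.12 in wildtype, 0.08 ± 0.12 in knockout). Oas1a, a member already bright in untreated cells, was at 4.13 and 4.42 in untreated wildtype and 4.20 and 4.50 in untreated knockout, and at 7.27 and 7.15 against 7.28 and 7.34 after 24 h. Its genotype groups overlapped in untreated cells. Oas3 rose late, from 0.50 and 0.61 at 3 h to 3.06 and 3.14 at 24 h in wildtype and from 1.26 and 0.97 to 3.20 and 2.99 in knockout. Oas2 had levels of 2.99 and 2.80 untreated, 5.05 and 5.10 at 3 h and 5.59 and 5.61 at 24 h in wildtype, against 3.90 and 3.77, 6.11 and 5.72, and 6.05 and 5.97 in knockout. Oas2 was higher in both knockout samples than in both wildtype samples at all 3 times.

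The ISG15 system consists here of the ubiquitin-like protein Isg15, its activating enzyme Uba7, the protease Usp18, which removes ISG15 and also holds back the interferon receptor, and the ubiquitin ligases Trim25, which acts on the RNA sensor RIG-I, and Dtx3l. Isg15 rose from 1.65 and 1.90 to 7.30 and 7.43 at 3 h and 7.76 and 7.79 at 24 h in wildtype, and from 2.12 and 2.60 to 7.71 and 7.55 and then 7.97 and 8.03 in knockout. Usp18 rose by 5.66 ± 0.18 and 6.27 ± 0.18 in wildtype and by 5.48 ± 0.18 and 6.05 ± 0.18 in knockout. Uba7 rose less, by 1.17 ± 0.12 at 3 h and 2.33 ± 0.12 at 24 h in wildtype and by 1.06 ± 0.12 and 1.96 ± 0.12 in knockout. Trim25 changed least of the 37 members. Its levels in wildtype were 5.51 and 5.20 untreated, 5.71 and 5.73 at 3 h and 6.21 and 6.20 at 24 h, and in knockout 5.95 and 5.66, 5.86 and 5.83, and 6.36 and 6.22. The untreated and 3 h levels of Trim25 overlapped in knockout cells and not in wildtype cells, and the wildtype rise at 3 h, 0.37 ± 0.13 (adjusted p = 0.0489), was lost in 13 of the 22 alternatives.

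Among the enzymes acting on nucleotides and RNA, Cmpk2, a mitochondrial nucleotide kinase, and Rsad2 (viperin), which makes a chain-terminating nucleotide, rose together. Cmpk2 went from -1.13 and -1.10 to 6.67 and 6.85 at 3 h and 6.25 and 6.19 at 24 h in wildtype, and from -0.67 and -0.24 to 7.11 and 6.88 and then 6.72 and 6.75 in knockout. Rsad2 rose by 7.34 ± 0.16 and 6.85 ± 0.16 in wildtype and by 6.91 ± 0.16 and 6.71 ± 0.16 in knockout. Isg20, an RNA exonuclease, was at -1.22 and -1.20 in untreated wildtype, 3.58 and 3.71 at 3 h and 5.88 and 5.81 at 24 h. In knockout cells Isg20 was at -0.59 and -0.66, then 4.54 and 4.06, then 6.39 and 6.28, above wildtype at each time. Eif2ak2, the kinase PKR that halts translation on double-stranded RNA, had overlapping untreated groups (0.43 and 0.44 in wildtype, 0.44 and 0.55 in knockout). Its 3 h levels were apart, 3.27 and 3.23 in wildtype and 3.90 and 3.70 in knockout, and its 24 h levels were 2.87 and 2.84 against 3.01 and 3.06. Znfx1, a helicase-like sensor of viral RNA, rose by 2.00 ± 0.12 and 2.50 ± 0.12 in wildtype and 2.25 ± 0.12 and 2.47 ± 0.12 in knockout. The helicase Ddx60 rose by 2.38 ± 0.17 and 3.99 ± 0.17 in wildtype and 2.27 ± 0.17 and 4.17 ± 0.17 in knockout. The RNA editing enzyme Adar rose by 2.20 ± 0.11 and 2.48 ± 0.11 in wildtype and 2.35 ± 0.11 and 2.34 ± 0.11 in knockout.

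The ADP-ribosyltransferase genes Parp9, Parp12 and Parp14 rose by 2.25 to 3.42 at 3 h in wildtype and by 2.35 to 3.13 in knockout. Parp14 was at 3.31 and 3.07 in untreated wildtype and at 3.83 and 3.71 in untreated knockout, rose to 6.62 and 6.61 against 7.07 and 6.73 at 3 h, and stood at 5.74 and 5.80 against 5.79 and 5.9995 at 24 h. The genotypes were apart for Parp14 in untreated cells and at 3 h and overlapped at 24 h. Trim21, a cytosolic antibody receptor and ubiquitin ligase, went from 1.77 and 1.73 to 4.84 and 4.87 and then 3.81 and 3.67 in wildtype. In knockout cells Trim21 went from 1.98 and 2.00 to 5.18 and 4.92 and then 4.18 and 4.21.

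Of the membrane restriction factors, Bst2 (tetherin), which holds budding virus at the cell surface, responded late. Its levels in wildtype were 4.48 and 4.58 untreated, 5.35 and 5.44 at 3 h and 7.84 and 7.78 at 24 h, and in knockout 4.71 and 4.85, 5.81 and 5.60, and 8.06 and 7.99. Bst2 rose 1.83-fold after 3 h and 9.70-fold after 24 h in wildtype, and 1.90-fold and 9.51-fold in knockout. Ifitm3, which blocks the fusion of virus in endosomes, rose by 1.56 ± 0.12 and 2.90 ± 0.12 in wildtype and by 1.47 ± 0.12 and 2.67 ± 0.12 in knockout.

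The other 8 members were Ifi35, Ifi44, Rtp4, Xaf1, Samd9l, Sp100, Epsti1 and Tor3a, and all 8 rose at both times in both genotypes. Rtp4 was at 3.08 and 3.36 in untreated wildtype and 3.72 and 4.07 in untreated knockout, and at 6.46 and 6.55 against 6.94 and 6.63 after 3 h. Epsti1 rose by 1.05 ± 0.16 at 3 h and 2.73 ± 0.16 at 24 h in wildtype and by 1.13 ± 0.16 and 2.32 ± 0.16 in knockout. Ifi44 (probe at chr3:151394035-151394094, mm9, minus strand) had the widest spread of the set. In wildtype it was at -3.37 and -3.24 untreated, 1.38 and 1.40 at 3 h and 4.63 and 4.53 at 24 h. In the first knockout mouse it was at 0.72, 3.93 and 5.40 at the successive times and in the second at -2.02, 1.42 and 5.05. At 3 h the second knockout mouse was at the wildtype level and the first well above it, and at 24 h all 4 mice lay between 4.53 and 5.40. The wildtype rise of Ifi44 at 24 h, 7.89 ± 0.92 (adjusted p = 0.000196), was the largest at that time, and its standard error was several times that of any other member.

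**Figure D2:**
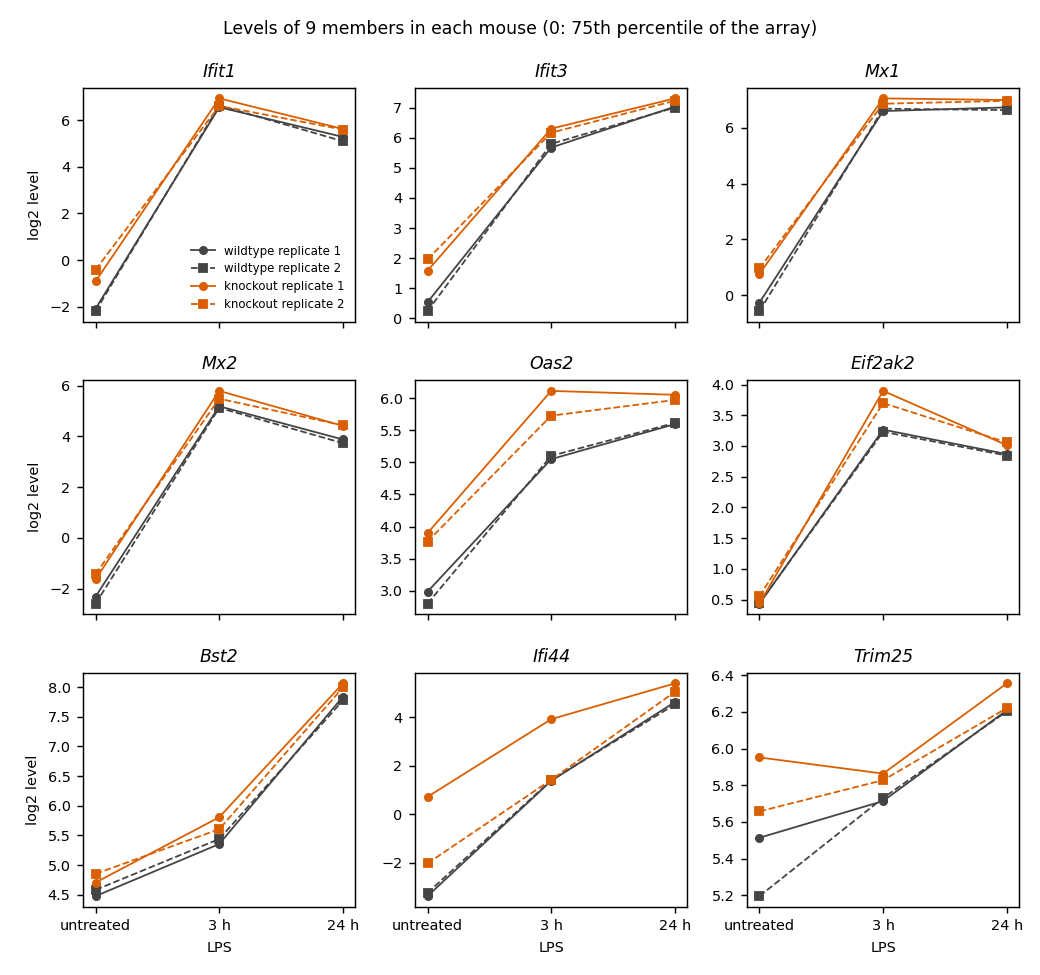
Log2 level (0 is the 75th percentile of the array) of 9 members in each of the 4 mice at the 3 times, with wildtype in grey and knockout in orange and a line per mouse. Ifit1, Mx2 and Eif2ak2 decline after 3 h, Bst2 and Ifi44 go on rising, and the lines of Ifit1, Ifit3 and Mx1 are farthest apart in untreated cells; the 2 orange lines of Ifi44 start at 0.72 and -2.02.

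The first genotype comparison asked how the set stood before LPS. In untreated macrophages 14 of the 37 members were higher in knockout than in wildtype (3.76% of all genes tested were higher) and 0 were lower (3.07% of all genes). The 14 were Ifit1, Ifit2, Ifit3, Mx1, Mx2, Oas2, Oasl1, Oasl2, Rsad2, Cmpk2, Rtp4, Uba7, Ifitm3 and Parp14. All 37 members had a positive difference (Oas1a turned to -0.00093 with another background correction), 30 with an unadjusted p under 0.05, and in 33 both knockout samples were above both wildtype samples (32.9% of all genes). The median of the members was 0.55 and that of all genes 0.04. Among the brightest 5745 genes, which held 31 of the members, the median was 0.59 for the members and 0.04 for all genes. Each knockout sample stood apart: the median member was 0.47 above the wildtype mean in the first and 0.54 in the second.

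The IFIT and MX families led this list. All 3 IFIT genes were higher in untreated knockout cells, Ifit1 by 1.48 ± 0.17 (2.78-fold, adjusted p = 0.00581), Ifit3 by 1.38 ± 0.15 (adjusted p = 0.00442) and Ifit2 by 1.10 ± 0.18 (adjusted p = 0.018). Both MX genes were higher, Mx1 by 1.28 ± 0.13 (2.42-fold, adjusted p = 0.0036) and Mx2 by 0.92 ± 0.14 (adjusted p = 0.0138). Of the 6 OAS genes 3 were higher: Oas2 by 0.94 ± 0.13 (adjusted p = 0.0113), Oasl1 by 0.80 ± 0.12 (adjusted p = 0.0126) and Oasl2 by 0.64 ± 0.12. The other OAS genes had differences of 0.07 ± 0.14 (Oas1a), 0.38 ± 0.16 (Oas1g) and 0.52 ± 0.21 (Oas3). Of the 5 genes of the ISG15 system only Uba7 passed, at 0.60 ± 0.12, and Isg15 had a difference of 0.59 ± 0.16 (adjusted p = 0.0654). Rtp4 was higher by 0.67 ± 0.16, Rsad2 and Cmpk2 by 0.66 ± 0.16 and 0.66 ± 0.15, Parp14 by 0.58 ± 0.14 and Ifitm3 by 0.51 ± 0.12. The largest difference was that of Ifi44, 2.66 ± 0.92, which did not pass (adjusted p = 0.124), and its knockout mice differed as given above. At the other end, Eif2ak2 differed by 0.06 ± 0.09 and Tor3a by 0.08 ± 0.11.

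The number called moved with the settings. With the 4 untreated arrays fitted alone 0 members passed, the lowest adjusted p among the 14 then being 0.113, and leaving out 1 array at a time left 3 to 16: 3 and 7 without the second and first untreated wildtype sample, 8 and 9 without the first and second untreated knockout sample, and 8 without any 1 of the wildtype LPS samples. Ifit1, Ifit3 and Mx1 passed in each of the 12 fits without 1 array, Oasl1 in 11 of them and Rsad2 in 2. On the same slides the slope of the spike-in probes lay from 0.735 to 0.743 on wildtype and from 0.794 to 0.799 on knockout arrays (untreated and 3 h), and 65.7% to 69.2% of probes were above background in untreated knockout against 71.9% to 72.8% in wildtype. On the 24 h slide the slopes were 0.824 and 0.820 on wildtype and 0.869 and 0.842 on knockout arrays. There 67.9% and 65.0% of probes were above background in wildtype and 58.6% and 62.7% in knockout. The part of these values in the differences was not tested.

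**Figure D3:**
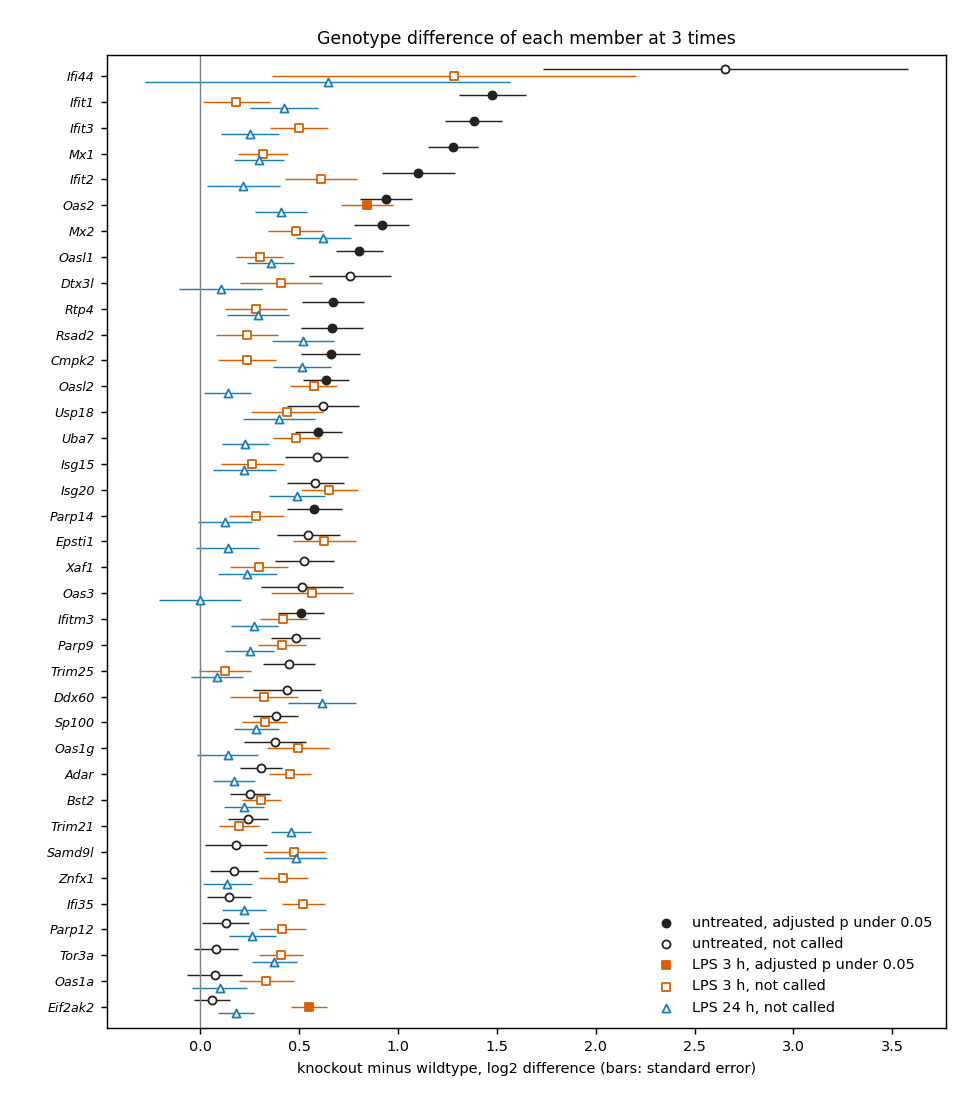
Knockout minus wildtype log2 difference (x axis, bars are standard errors) of each of the 37 members in untreated cells, after 3 h and after 24 h of LPS, ordered by the untreated difference, with filled symbols for an adjusted p under 0.05. All untreated points lie right of 0 and 14 are filled, 2 are filled at 3 h and 0 at 24 h.

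After 3 h of LPS 2 members were higher in knockout (1.07% of all genes) and 0 lower (0.618% of all genes), Oas2 by 0.84 ± 0.13 and Eif2ak2 by 0.55 ± 0.09 (both adjusted p = 0.0422). All 37 differences were positive (Ifit1 turned to -0.0020 under quantile normalization), 25 had an unadjusted p under 0.05, and in 35 both knockout samples were above both wildtype samples (33.4% of all genes). The median was 0.41 for the members and 0.03 for all genes. The first knockout mouse carried more of this than the second, with the median member 0.57 and 0.25 above the wildtype mean. Without the second knockout sample of this time 15 members passed, without either knockout 24 h sample 3, and without any 1 of the other 9 arrays 0. Among the genes that led in untreated cells, Ifit1 had a difference of 0.18 ± 0.17, Ifit3 of 0.50 ± 0.15 and Mx1 of 0.32 ± 0.13.

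After 24 h of LPS 0 members were higher (0.718% of all genes) and 0 lower (1.67% of all genes) by limma, with an unadjusted p under 0.05 for 14 and a lowest adjusted p of 0.0571 (Trim21, 0.46 ± 0.10). The difference was positive for 36 of 37, Oas3 being at 0.00 ± 0.21, and in 33 both knockout samples were above both wildtype samples (27.4% of all genes). The median was 0.25 for the members and 0.00 for all genes. These medians were 0.12 and -0.0045 under quantile normalization, and 0.23 and 0.09 with another background correction (normexp). Mx2 had a difference of 0.62 ± 0.14 (adjusted p = 0.058), Oas2 of 0.41 ± 0.13, Ifit1 of 0.42 ± 0.17 and Ifit3 of 0.25 ± 0.15. Without either knockout 3 h sample 5 members passed at 24 h. With the 3 samples of a mouse averaged first, 0 of 37 passed (0% of all genes) by limma, 34 with an unadjusted p under 0.05, and the median difference was 0.40 with all 37 positive.

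Whether LPS changed the genes differently in the genotypes was tested as an interaction. At 3 h 0 members were called (0.0348% of all genes), with an unadjusted p under 0.05 for 6 and a lowest adjusted p of 0.108, for Mx1. At 24 h 0 were called (0.326% of all genes), with an unadjusted p under 0.05 for 8 and a lowest adjusted p of 0.0702. With the mouse as a random block 2 members were called lower at 24 h, Mx1 (adjusted p = 0.0479) and Ifit3 (adjusted p = 0.0494), and 2 were also called under quantile normalization, normexp correction and the filter on all arrays. The members with the most negative differences at 3 h after Ifi44 were Ifit1 at -1.29 ± 0.24, Mx1 at -0.96 ± 0.18 and Ifit3 at -0.88 ± 0.21, and at 24 h Ifit3 at -1.13 ± 0.21, Ifit1 at -1.06 ± 0.24 and Mx1 at -0.98 ± 0.18. These values share the untreated samples with the genotype comparison before LPS. The largest positive value at 3 h was that of Eif2ak2, 0.49 ± 0.13 (adjusted p = 0.179). A missed threshold does not show that the genotypes responded alike.

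The members were sorted as early, late or neither by the change from 3 h to 24 h. Some calls of this change were lost when 1 LPS array of the same genotype was left out. The 2 times were on different slides, and the spike-in slopes also differed between them. In wildtype the slopes were 0.743 and 0.743 at 3 h against 0.824 and 0.820 at 24 h. In knockout they were 0.798 and 0.799 against 0.869 and 0.842. The part of the slopes in this change was not tested. In wildtype 20 were higher at 24 h (25.7% of all genes), 8 were lower (26.9% of all genes) and 9 were not called. In knockout 16 were higher (26.4% of all genes), 6 lower (32.6% of all genes) and 15 not called. The share of members called lower was below that of all genes in both genotypes, so an early class is not particular to this set. The median change of the members was 0.48 in wildtype and 0.29 in knockout, and that of all genes -0.04 and -0.09. The same 6 members were lower at 24 h in both genotypes: Ifit1, Mx2, Trim21, Parp14, Parp9 and Eif2ak2. Ifit1 changed by -1.41 ± 0.17 in wildtype and -1.17 ± 0.17 in knockout, Mx2 by -1.35 ± 0.14 and -1.21 ± 0.14, and Trim21 by -1.11 ± 0.10 and -0.85 ± 0.10. Cmpk2 and Rsad2 were lower at 24 h in wildtype, by -0.54 ± 0.15 and -0.48 ± 0.16, and were not called in knockout, at -0.26 ± 0.15 and -0.20 ± 0.16.

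The 16 members higher at 24 h in both genotypes were Bst2, Ddx60, Epsti1, Ifi35, Ifi44, Ifit3, Ifitm3, Isg20, Oas1a, Oas3, Sp100, Tor3a, Trim25, Uba7, Usp18 and Xaf1. Apart from Ifi44, at 3.19 ± 0.92 and 2.55 ± 0.92, the largest of these changes were those of Oas3 at 2.54 ± 0.21 and 1.98 ± 0.21, Bst2 at 2.41 ± 0.10 and 2.32 ± 0.10, and Isg20 at 2.20 ± 0.14 and 2.04 ± 0.14 (wildtype and knockout). Ifit2, Oas2, Oasl2 and Znfx1 were called higher in wildtype and not in knockout. Dtx3l, Oasl1 and Mx1 had the smallest changes in wildtype, between 0.01 and 0.04, and Adar, Mx1 and Parp12 in knockout, between -0.01 and 0.04. The genotype difference of this change was called for 0 of the 37 by limma (0.00435% of all genes), with an unadjusted p under 0.05 for 3 and a lowest adjusted p of 0.239, so the classes are not shown to differ between genotypes.

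**Figure D4:**
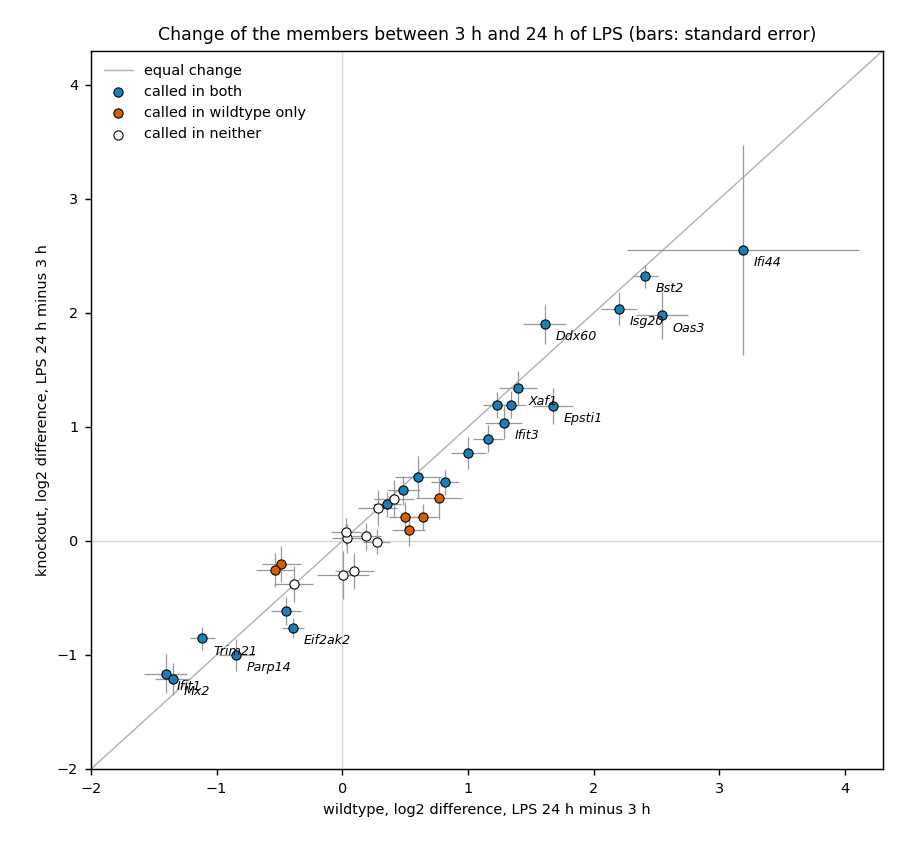
Log2 change from 3 h to 24 h of LPS for each member in wildtype (x axis) and knockout (y axis), bars are standard errors, coloured by where the change passed the test, with the line of equal change. Points run along the line from Ifit1 and Mx2 (below -1 in both) to Bst2, Oas3 and Ifi44 (near or above 2 in both).

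Of the 8 members early in wildtype 5 were higher in untreated knockout cells, of the 20 late 6 and of the 9 others 3, and the median untreated differences were 0.62, 0.52 and 0.59. The ISRE core was in 4 of the 5 early members with a listed promoter (Ifit1, Rsad2, Trim21 and Eif2ak2), 6 of the 17 late ones and 2 of the 7 others. It was in 4 of the 9 members with a listed promoter that were higher in untreated knockout cells and in 8 of the 20 that were not called. These counts are a description only. In all 16 members lay in 6 groups of neighbours, with probes within 200000 bases of the next (mm9), and neighbours did not always share their timing. Rsad2 and Cmpk2 (chr12:27127859-27164178) were both early in wildtype, whereas at chr19:34650244-34723855 Ifit1 was early and Ifit2 and Ifit3 late, and at chr16:97668644-97782386 Mx2 was early and Mx1 neither. At chr5:121180343-121346794 Oas2, Oas3 and Oas1a were late and Oas1g neither.

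Where a member had a second probe, most seconds moved the same way as the first after LPS. The second Isg15 probe rose by 6.73 at 3 h and 7.37 at 24 h in wildtype against 5.59 and 6.004 for the first. The second Cmpk2 probe changed by -0.23 from 3 h to 24 h in wildtype against -0.54, and by 0.03 in knockout against -0.26. In untreated cells its genotype groups overlapped, at -2.34 and -3.015 in wildtype and -2.56 and -1.88 in knockout. Its genotype difference was 0.46 untreated against 0.66 for the first probe, and 0.82 after 24 h against 0.51. The untreated call and the early class of Cmpk2 thus rest on the first probe. The second Dtx3l probe changed by -0.81 in wildtype and -1.54 in knockout from 3 h to 24 h, where the first, which stood for the gene, changed by 0.01 and -0.30. The second Adar probe changed by -0.46 in wildtype where the first changed by 0.27, so that Adar, called in neither genotype, goes either way by probe. The second Xaf1 probe rose by 1.503 and 2.26 at 3 h and 24 h in wildtype against 3.51 and 4.91, changed by 0.13 from 3 h to 24 h in knockout against 1.34, and had a 24 h genotype difference of -0.20 against 0.24, so the late class of Xaf1 rests on the first probe. The second Oas1g probe was above background on 4 of the 12 arrays and gives no usable value. Oas1a and Oas1g are close copies, and how far their probes can tell them apart was not tested.

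The genes upstream of the set are given for the same samples. Ifnb1, interferon beta, was not well above background on any untreated array and stood between 0.74 and 1.91 on all LPS arrays. It was at least 377-fold higher after 3 h and 322-fold after 24 h in wildtype and at least 328-fold and 419-fold in knockout, against the lowest signal above background. Its genotype difference was not called, at 0.36 ± 0.23 after 3 h and 0.94 ± 0.23 after 24 h (adjusted p = 0.0707). The interferon receptor gene Ifnar1 rose by 1.15 in wildtype and 1.10 in knockout at 3 h. Of 7 JAK, STAT and ISGF3 genes 6 rose at 3 h in each genotype (23.2% of all genes in wildtype, 26.4% in knockout). Stat2 rose by 1.93 and 2.12 and Irf9 by 1.10 and 1.00. In untreated knockout cells 1 of the 7, Stat3, was higher, by 0.70 (3.76% of all genes). Stat2 and Irf9 had untreated differences of 0.29 and 0.42, neither called.

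The counts of genes higher in untreated knockout cells that follow stand beside 3.76% of all genes. Of 9 factors that induce interferon beta 3 were higher in untreated knockout cells, Irf7 by 1.15, Irf1 by 0.80 and the TLR4 adaptor Ticam2 by 0.52. Irf7, itself an interferon-stimulated gene, rose by 3.96 at 3 h and 7.38 at 24 h in wildtype and by 3.66 and 6.32 in knockout. Among 7 brakes on interferon signalling Socs3 was higher in untreated knockout cells by 2.03. Socs1, which blocks the receptor's kinases, was higher in knockout by 0.79 after 3 h (1.07% of all genes) and 1.00 after 24 h (0.718% of all genes). Of 10 sensors of RNA and DNA Ddx58 (RIG-I), Zbp1 and Sting1 were higher in untreated knockout cells, by 0.54, 0.80 and 0.54. After LPS 2 of the 10 were higher in knockout at 3 h (1.07% of all genes) and 1 at 24 h (0.718% of all genes). Of 22 further interferon-stimulated genes outside the set 8 were higher in untreated knockout cells and 0 lower (3.07% of all genes), with a median of 0.34. At 3 h 21 of the 22 rose in wildtype (23.2% of all genes). Of 11 GBP and IRG GTPases, genes that interferon gamma also induces, 8 were higher in untreated knockout cells with a median of 0.82. After LPS 1 of the 11 was higher in knockout at 3 h (1.07% of all genes) and 1 at 24 h (0.718% of all genes). Of 12 NF-kB feedback genes 6 were higher in untreated knockout cells, with a median of 0.42, and all 12 were lower at 24 h than at 3 h in both genotypes (26.9% of all genes in wildtype, 32.6% in knockout), whereas 20 of the 37 members were higher at 24 h in wildtype.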

How the data were processed

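The deposited scanner files hold spot intensity values from Agilent Feature Extraction 10.7.3.1, per the submitters' processing notes; the processed signal is background-subtracted, per the file headers. A deposited table of log2 values of the same arrays, whose exact scaling is not given in the sources used here, was an alternative. The processed signal was taken to log2 and the 75th percentile of each array subtracted. The filter kept 28426 of 39429 probes, those with both arrays of some group well above background, and the brightest probe stood for a gene. limma 3.58.1 (R 4.3.3) fitted all 12 arrays with 6 group means (6 residual degrees of freedom) and two-sided tests, adjusted by Benjamini-Hochberg over all genes at 0.05. The fit was tested on simulated data. The labels number the mice in each genotype, which pairs samples of the same mouse across times. Their deviations from the group means correlated at 0.19, 0.13 and 0.15 in wildtype and 0.36, 0.13 and 0.12 in knockout. Each mouse also kept its place on every slide, so mouse and place cannot be told apart in these correlations. With 2 arrays a group the number of arrays limits the precision.

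Probes were named through RefSeq accessions, symbols or synonyms, and 8428 kept the name in the file. Probe coordinates are mm9, per the file headers, and promoters are RefSeq's on GRCm38.p6. The members and gene lists were chosen with earlier results of these data known, so their counts are descriptions beside those of all genes. Values are given for the 3 members with the largest and smallest LPS differences, every member called in a genotype comparison (or the leading 8), and members chosen for each functional group, with further members named for their class. Alternatives changed the scaling, background correction, filter, probe rule, arrays fitted and mouse block, and left out each array in turn.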

Additional observations from a re-analysis of the deposited data

Results flagged for a closer look

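Oas1g, a member of the OAS family, changed from 3 h to 24 h of LPS with a positive sign in the wildtype mice and a negative sign in the knockout mice. This change passed the test in neither genotype. The change was 0.17 and 0.02 in the wildtype mice and -0.42 and -0.11 in the knockout mice, so the mean knockout change minus the mean wildtype change was -0.36. The limma interaction was -0.36 ± 0.22 (adjusted p = 0.471), which did not pass.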

How the results depend on the processing

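The LPS calls against untreated cells changed little, also without 1 array. Over the alternatives that left out no single array, 36 to 37 members were called at 3 h in wildtype and 37 at 24 h. In knockout 35 to 36 and 36 to 37 were called. From 3 h to 24 h the calls moved more, with 20 to 22 higher and 7 to 9 lower in wildtype. In knockout 12 to 18 were higher and 6 to 7 lower. Leaving out 1 LPS array of a genotype lost some of that genotype's calls from 3 h to 24 h, more in wildtype. The genotype counts also moved with the settings. In untreated cells 7 members were called with no filter on dim probes, 22 with only probes above background on all arrays and 0 with only the groups compared, and 3 to 16 without 1 array. After 3 h the count was 13 with normexp correction, 0 with no filter, 9 with only probes above background on all arrays, 5 with the deposited table and 0 with only the groups compared, and 0 to 15 without 1 array. After 24 h it was 1 with scaling on probes above background on all arrays, 2 with normexp correction, 2 with only probes above background on all arrays, and 0 to 5 without 1 array. For the 24 h interaction 2 members were called with quantile normalization, 2 with normexp correction and 2 with only probes above background on all arrays, and over mouse means 9 with normexp correction. With the mouse as a random replicate block 2 members were called in the 24 h interaction and 16 in untreated cells. A fixed mouse block cannot test genotype. Printed member values that changed sign were not called in the settings of the report, among them Adar in wildtype from 3 h to 24 h, at 0.27 there.
Under quantile normalization Ifit1 after 3 h (knockout minus wildtype) was -0.0020, the knockout change from 3 h to 24 h was -0.060 for Mx1, -0.0080 for Oasl1 and 0.13 for Adar, and the knockout 3 h response of Trim25 was -0.29. With scaling on probes above background on all arrays the last 2 were 0.020 and -0.11. With normexp correction Oas1a in untreated cells was -0.00093 and the knockout change of Adar 0.0059, and with the deposited table that change was 0.0094 and Oas3 after 24 h 0.014. With the mean over probes the wildtype change from 3 h to 24 h was -0.40 for Dtx3l and -0.093 for Adar. Without 1 array the same change ranged from -0.0076 to 0.090 for Mx1, -0.029 to 0.082 for Oasl1 and -0.087 to 0.099 for Dtx3l in wildtype, and from -0.074 to 0.12 for Mx1, -0.029 to 0.19 for Oasl1, -0.14 to 0.23 for Parp12 and -0.13 to 0.11 for Adar in knockout. The knockout minus wildtype difference ranged from -0.075 to 0.22 for Oas1a and -0.015 to 0.17 for Tor3a in untreated cells and from -0.10 to 0.10 for Oas3 after 24 h, and the knockout 3 h response of Trim25 from -0.11 to 0.19. The cause of these shifts was not tested.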
